A study of Homo sapiens with 4 samples.

Results

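The genes described are 9 subunits of integrins and of laminin-332, namely ITGA2, ITGA3, ITGA5, ITGA6, ITGB1, ITGB4, ITGB6, LAMA3 and LAMB3. They were taken by gene name from the non-control spots of the arrays, with every probe of each gene. They are 9 of 30982 gene names, measured by 15 probes on 24 spots of each array.

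RNA of 2 established squamous cell carcinoma lines was hybridised to 4 Agilent oligo-microarrays read in 2 colours. FaDu was derived from a carcinoma of the hypopharynx and HSC3 from one of the tongue. In each line, the miR-489 or miR-504 transfectant was labelled with Cy5 and the transfectant of a control miRNA with Cy3, and RNA was taken at 72 h. There was 1 array per line and miRNA, without a dye swap, so each line was represented by 2 Cy3 hybridisations of its control transfectant. The labels do not say whether those 2 control RNAs came from separate cultures, and p-values between the lines therefore measure only the spread between hybridisations, which may be technical. Each line is 1 line, and a difference between the lines cannot be told apart from a difference between their sites of origin or culture histories.

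Integrins are heterodimers of an alpha and a beta subunit that span the plasma membrane and bind extracellular matrix. ITGB1 pairs with many alpha subunits, ITGA2 with it forming a collagen receptor, ITGA3 a laminin receptor and ITGA5 the classical fibronectin receptor. ITGA6 pairs with ITGB1 or, in stratified squamous epithelium, with ITGB4, and integrin alpha6 beta4 is the laminin receptor of the hemidesmosome. ITGB6 pairs with the alpha v subunit and is known for expression in epithelia during wound repair and in carcinomas. Laminin-332 is the basement membrane laminin of stratified epithelia, whose alpha3 chain comes from LAMA3 and beta3 chain from LAMB3.

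The miRNAs compared are shown by their mature sequences, since the comparison between them is the only one of the ratios in which a probe's dye effect cancels. The labels give no arm, and the sequences are those of the arms that the plain names miR-489 and miR-504 long stood for, from RefSeq on GRCh38.p14. Capitals mark the seed, bases 2 to 8 counted from the 5′ end, and the seeds share 2 of their bases at the same position.
hsa-miR-489-3p, minus strand of chr7:93483947-93483968: gUGACAUCacauauacggcagc
hsa-miR-504-5p, minus strand of chrX:138667760-138667781: aGACCCUGgucugcacucuauc

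Promoters of LAMA3 and LAMB3 are shown because these laminin-332 chains were both lower in FaDu. RefSeq's promoter table held 7 of the 9 genes, with 250 bases before and 50 after an annotated start. Capitals mark the AP-1 motif TGANTCA and the GC box GGGCGG, searched on both strands, of which the capitals never overlap.
LAMA3, GRCh38.p14, plus strand of chr18:23872770-23873069: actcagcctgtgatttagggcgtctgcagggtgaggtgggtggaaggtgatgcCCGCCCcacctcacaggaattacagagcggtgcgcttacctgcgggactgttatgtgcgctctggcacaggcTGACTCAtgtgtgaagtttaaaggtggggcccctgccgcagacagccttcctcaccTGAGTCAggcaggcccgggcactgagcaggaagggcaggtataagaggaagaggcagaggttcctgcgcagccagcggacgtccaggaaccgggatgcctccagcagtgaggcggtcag
LAMB3, GRCh38.p14, minus strand of chr1:209651325-209651624: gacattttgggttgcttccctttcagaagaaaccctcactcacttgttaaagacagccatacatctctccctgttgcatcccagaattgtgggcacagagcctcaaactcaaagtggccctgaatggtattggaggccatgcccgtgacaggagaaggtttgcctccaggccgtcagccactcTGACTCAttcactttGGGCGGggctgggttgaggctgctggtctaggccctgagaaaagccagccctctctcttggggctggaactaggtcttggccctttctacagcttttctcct
The LAMA3 window held 2 AP-1 motifs, starting 125 and 69 bases before the annotated start, and 1 GC box. The LAMA3 probes are listed under different transcripts, and which of these starts at the window shown was not examined. The LAMB3 window held 1 AP-1 motif, 67 bases before the start, and 1 GC box. LAMB3 has 3 listed starts, and the windows of the other two held 0 AP-1 motifs. Among the 7 genes with a window, 3 held the AP-1 motif in any window (LAMA3, LAMB3 and ITGA5) and 6 held the GC box. Of all 35116 promoter windows of this length, 7.71% held the AP-1 motif and 45.0% the GC box. Those shares count single windows, whereas a gene was counted over all its windows, so they cannot be compared like for like. The motifs are matches of letters, and no binding was measured.

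All members that could be tested had less RNA in FaDu than in HSC3. The Cy3 level of a probe is its log2 background-subtracted median signal minus the median of the array's probes well above background, and levels are compared between arrays for the same probe only. By its brightest probe, each of the 8 genes tested was called lower in FaDu (limma, Benjamini-Hochberg adjusted p under 0.05 over 24119 probes) and at least 2-fold lower, where 21.2% of all 18015 genes were called lower and 12.2% called at least 2-fold lower. Of the 8, ITGA2 passed the filter on dim probes only through HSC3, while the other 7 were well above background on all 4 arrays. The median difference of the 8 genes was −1.63 on the log2 scale and that of all genes 0.08. The members were chosen with earlier results of these data known, so they are not an independent sample to set against all genes. Less RNA per cell and fewer expressing cells cannot be told apart in such bulk RNA.

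**Figure D1:**
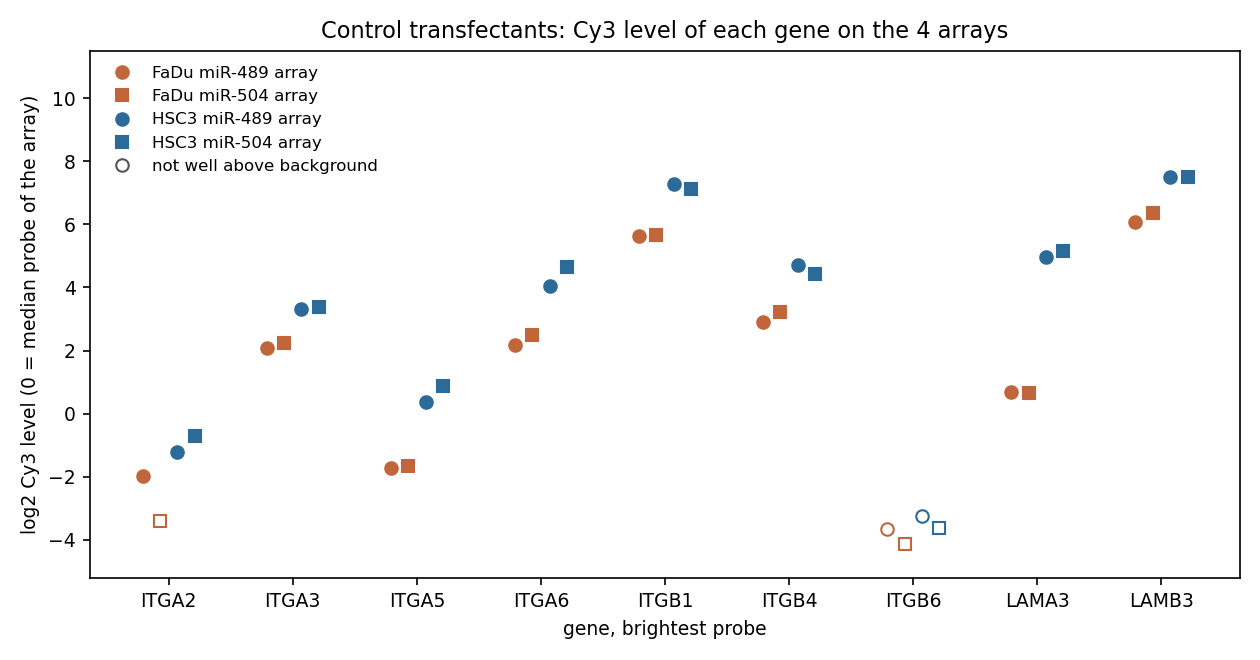
Log2 Cy3 level of the brightest probe of each gene (vertical axis, 0 is the median probe of the array) in the control transfectants on the 4 arrays, with FaDu in orange, HSC3 in blue and open symbols for spots not well above background. Within each gene both HSC3 arrays lie above both FaDu arrays, with the widest gap for LAMA3, whereas the spots of ITGB6 were all not well above background.

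LAMA3 had the largest difference among the members. The log2 Cy3 level of its brightest probe, A_23_P89780, was 0.68 on the FaDu miR-489 array, 0.66 on the FaDu miR-504 array, 4.97 on the HSC3 miR-489 array and 5.15 on the HSC3 miR-504 array. The 2 arrays of a line lay close together, and the lines were far apart. The difference, FaDu minus HSC3, was −4.39 on the log2 scale (SE 0.15), which is a 21.0-fold higher level in HSC3 (95% confidence interval 16.1 to 27.3), with an adjusted p of 9.65e-05 by limma. This was the 102nd lowest difference of 18015 genes.

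2 further probes for LAMA3 were dimmer and pointed the same way. Probe A_24_P687302 had log2 Cy3 levels of −3.38 and −2.89 in FaDu, well above background on 1 of the 2 arrays, and of 0.15 and 0.65 in HSC3, a difference of −3.53 (SE 0.25, adjusted p = 0.000494). Probe A_24_P179569 was not well above background on either FaDu array, with a fitted difference of −2.52 (adjusted p = 0.000640 by limma). Against the lowest signal well above background, its level was at least 4.81-fold higher in HSC3, a bound that was not tested. Both dimmer probes passed the filter on dim probes only through HSC3, so a lower call was favoured for them. By the listed positions these probes lie 23637 and 81559 bases from the brightest one, on a genome build that is not given in the sources used here.

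LAMB3, the beta3 chain, was lower in FaDu as well. The LAMB3 probe had log2 Cy3 levels of 6.09 and 6.35 in FaDu and of 7.51 and 7.51 in HSC3. The difference was −1.29 (SE 0.16, adjusted p = 0.00228), a 2.45-fold higher level in HSC3 (95% confidence interval 1.85 to 3.24). The confidence interval of this fold lay wholly below that of the brightest LAMA3 probe. Fold sizes also differed between probes of the same gene, with an interval of 4.08 to 8.09 for the dim LAMA3 probe A_24_P179569. Whether the chains differed between the lines by unlike amounts therefore cannot be told from these intervals.

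Among the alpha subunits, ITGA5 differed most. Its log2 Cy3 levels were −1.73 and −1.65 in FaDu and 0.37 and 0.87 in HSC3, a difference of −2.30 (SE 0.21, adjusted p = 0.000876). ITGA6, the alpha subunit of the hemidesmosome, had levels of 2.19 and 2.50 in FaDu and of 4.05 and 4.65 in HSC3, a difference of −2.01 (SE 0.24, adjusted p = 0.00200). ITGA3 had levels of 2.07 and 2.24 in FaDu and of 3.31 and 3.39 in HSC3, a difference of −1.19 (SE 0.15, adjusted p = 0.00240). In these 3 genes the lowest HSC3 array exceeded the highest FaDu array by at least 1.07 on the log2 scale.

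ITGA2, the alpha subunit of a collagen receptor, was dim in FaDu. Its brightest probe, A_24_P243329, had log2 Cy3 levels of −1.96 and −3.40 in FaDu and of −1.21 and −0.71 in HSC3, a difference of −1.72 (SE 0.47, adjusted p = 0.0279). The FaDu miR-504 array was not well above background for this probe, and without that array the difference was −0.9996 with an adjusted p of 0.0518 (0.00361 to 0.115 over all alternatives). The other probe, A_23_P70161, differed by −1.68 (SE 0.22, adjusted p = 0.00251), with 1 of the 2 FaDu arrays well above background. The call for ITGA2 was thus the least firm of the 8.

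Of the beta subunits, ITGB1 was lower in FaDu by each of its 4 probes. The brightest, A_32_P95397, had log2 Cy3 levels of 5.62 and 5.66 in FaDu and of 7.27 and 7.11 in HSC3, a difference of −1.55 (SE 0.15, adjusted p = 0.00109). The other three differed by −1.78 (A_23_P104193), −1.98 (A_23_P104199, the mean of 10 spots) and −2.03 (A_24_P598836). The last of these is listed on another chromosome than the rest although it carries the name ITGB1, and its identity is uncertain. ITGB4, the partner of ITGA6 in hemidesmosomes, had levels of 2.92 and 3.23 in FaDu and of 4.71 and 4.41 in HSC3, a difference of −1.48 (SE 0.19, adjusted p = 0.00239). The confidence intervals of the differences of ITGB4 and ITGB1 overlapped.

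ITGB6 was not well above background in Cy3 on any array and was not tested. Its background-subtracted Cy3 signals were 27.5 and 19.5 in FaDu and 38.0 and 35.5 in HSC3. In Cy5 the probe was well above background on the 2 miR-504 arrays, with signals of 28.0 in FaDu and 31.0 in HSC3, and not on the miR-489 arrays, with 17.5 and 16.0. All of these values are close to the detection limit, and no level is given for this gene.

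The miRNA transfectants, labelled with Cy5 on the same arrays, showed the same order of the lines. All 8 genes were called lower in FaDu and at least 2-fold lower, where 11.8% of 18993 genes were called at least 2-fold lower in Cy5. The log2 difference was −4.55 for LAMA3, −2.31 for ITGA5, −2.26 for ITGA2, −1.87 for ITGA6, −1.85 for LAMB3, −1.68 for ITGB1, −1.20 for ITGB4 and −1.08 for ITGA3. In this fit the 2 arrays of a line carry different miRNAs, and the Cy5 RNA is a separate transfection from the Cy3 RNA, although hybridised to the same array. Of the 14 member probes tested in Cy3, 10 were well above background on all 4 arrays, and each of these was called lower in FaDu in both dyes. Their values did not overlap between the lines, but how many of all probes showed no overlap was not counted. The other 4, both ITGA2 probes and the dimmer LAMA3 probes, passed the filter on dim probes only through HSC3, so a lower call was favoured for them.

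**Figure D2:**
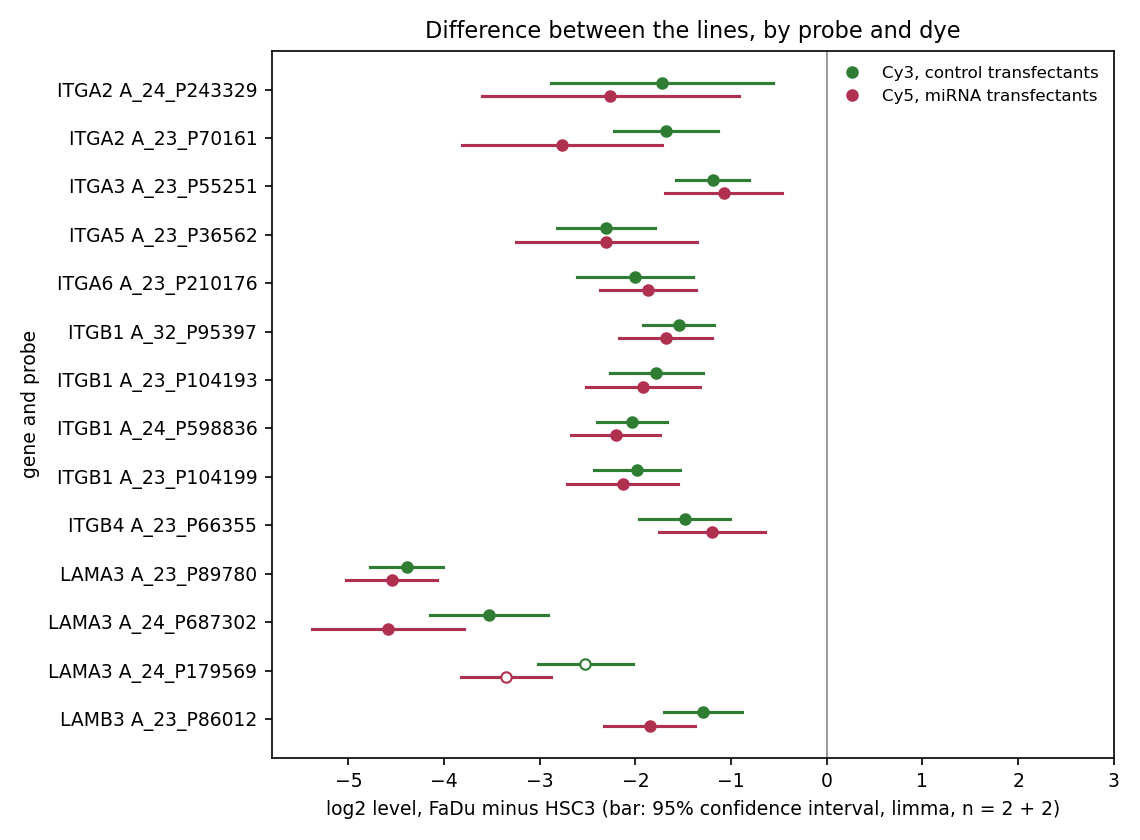
Log2 level in FaDu minus HSC3 for each member probe tested (horizontal axis) with its 95% confidence interval from limma, in Cy3 (control transfectants, green) and Cy5 (miRNA transfectants, red), and open symbols where neither FaDu array was well above background. Each interval lies below 0, from −1.08 for ITGA3 in Cy5 to −4.59 for a dim LAMA3 probe in Cy5.

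Both lines carried the markers of squamous epithelium. All 6 markers on the array, KRT5, KRT14, KRT17, CDH1, DSG3 and TP73L (the array's name for TP63), were well above background on all 4 arrays, and none differed by 2-fold, although KRT14 (−0.93, adjusted p = 0.0144) and TP73L (−0.69, adjusted p = 0.0491) were called lower in FaDu. Their summed Cy3 signal, in units of the array's median probe, was 164 and 119 in FaDu and 201 and 171 in HSC3. Of the markers of other cells, 0 of 5 for fibroblasts and 0 of 3 for endothelium were well above background on all arrays, and of the 3 leukocyte markers only CD68, which differed by −0.92 (adjusted p = 0.0758). Their summed signals were 0.224 to 0.380 for fibroblasts, 0.159 to 0.289 for endothelium and 0.918 to 2.51 for leukocytes. COL1A1, a fibroblast marker not well above background on either FaDu array, was called lower in FaDu. The part of these markers in the members' differences was not tested. The reference genes GAPDH and ACTB differed by 0.44 and 0.00 between the lines and were not called. Cy3 levels of 2 arrays of a line correlated with r = 0.994 in FaDu and 0.990 in HSC3, and those of arrays of different lines with r = 0.924 to 0.928, over 20914 probes of shared design.

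Genes that work with these receptors were split between the lines. Over all genes 21.2% were called lower and 27.1% higher in FaDu, against which the counts of each list below are to be read. Of the other integrin subunits, 7 of 18 could be tested, with 3 lower and 2 higher in FaDu, and 9 were not well above background on any array. Among them ITGB7 was higher in FaDu by 1.78 (adjusted p = 0.000761) and ITGA7, a laminin receptor subunit of muscle, by 1.54 (adjusted p = 0.000967). ITGAE, which pairs with ITGB7, was lower, with a difference of −1.01 (adjusted p = 0.00857), and ITGA1 was called lower while not well above background on either FaDu array. Their median difference was −0.07, against −1.63 for the members, which were chosen with earlier results of these data known. Not all integrin subunits, then, were lower in FaDu.

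Of 9 other laminin chains, 7 could be tested, with 3 lower and 2 higher in FaDu and a median difference of 0.22. That median includes LAMA1, LAMA2 and LAMC3, each dim in 1 of the lines. LAMB1 and LAMC1, chains of widespread laminins, were lower, with differences of −1.11 (adjusted p = 0.00422) and −1.48 (adjusted p = 0.00247). LAMA1 was called lower in FaDu and LAMA2 and LAMC3 higher, each not well above background in the line with less, so both higher calls rest on genes that passed the filter only through the line in which they were high. LAMA5 and LAMB2 were not called, with differences of 0.38 and 0.22. Among the 4 chains well above background on all arrays, LAMA5, LAMB1, LAMB2 and LAMC1, none was thus called higher.

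Of the 4 partners of integrin alpha6 beta4 in hemidesmosomes, 3 were called lower in FaDu and 0 higher, with a median difference of −1.06. COL17A1, the transmembrane collagen of the hemidesmosome, had the largest difference, −2.32 (adjusted p = 0.000616). The plakin DST (−1.07, adjusted p = 0.00815) and the tetraspanin CD151 (−1.06, adjusted p = 0.00305) followed, and PLEC1, the array's name for plectin, differed by −0.43 without being called (adjusted p = 0.0730).

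Of 20 cytoplasmic proteins of focal adhesions, 10 were lower and 2 higher in FaDu, with a median difference of −0.54. The adaptor ILK was lower, with a difference of −1.82 (adjusted p = 0.00114), and so was C20orf42, the array's name for kindlin-1, with −1.79 (adjusted p = 0.00531). PARVB, which binds ILK, was higher by 2.76 (adjusted p = 0.000432) and PLEKHC1, the array's name for kindlin-2, by 1.10 (adjusted p = 0.00321). Thus the kindlins differed in opposite directions. The background-subtracted Cy3 signals of PARVB were only 57.0 and 59.0 in HSC3, so its fold is imprecise. TNS1 and TLN2 were called lower while not well above background on either FaDu array.

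Of 12 matrix proteins, 9 could be tested, with 4 lower and 2 higher in FaDu and a median difference of −0.38. TNC (−4.51, adjusted p = 0.00328), THBS1 (−3.22, adjusted p = 0.000202) and FN1, the ligand of the receptor that contains ITGA5 (−2.12, adjusted p = 0.00808), were lower. The background-subtracted Cy3 signals of TNC were only 37.0 and 29.5 in FaDu, and 1662 and 460 in HSC3. Those of FN1 were 51.15 and 37.45 in FaDu, and 132 and 361 in HSC3. Both folds are therefore imprecise. COL4A2, a collagen IV chain of basement membranes, was higher in FaDu by 4.77 (adjusted p = 0.000443), and its partner COL4A1 was called higher while not well above background on either HSC3 array. The signals of COL4A2 were 1882.5 and 1009.5 in FaDu and only 63.0 and 55.0 in HSC3, so its fold is imprecise as well. COL1A1, counted as lower, was not well above background on either FaDu array.

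**Figure D3:**
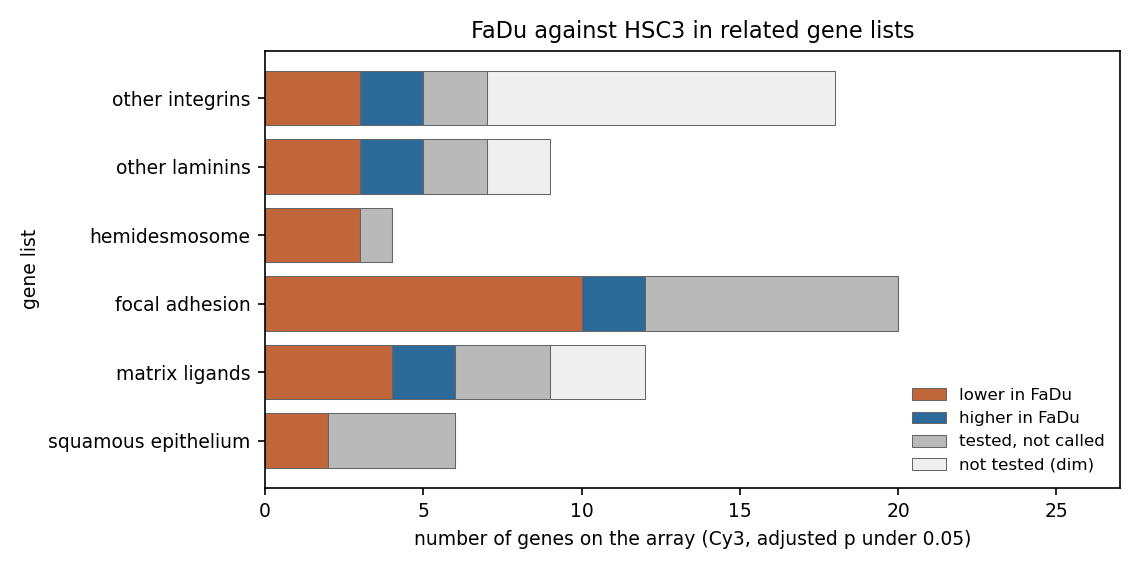
Number of genes of each list (horizontal axis) called lower in FaDu, called higher, tested without a call or not tested because too dim, in Cy3 at an adjusted p under 0.05. Hemidesmosome partners have 3 of 4 lower and 0 higher, while the lists of integrins, laminins, focal adhesion and matrix genes hold calls in both directions, those of higher laminins being LAMA2 and LAMC3, dim in HSC3.

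The ratio of miRNA transfectant to control transfectant was measured once per line and miRNA. It is given as the log2 ratio of background-subtracted medians, Cy5 over Cy3, centred per array on the median over probes whose channels were both well above background. The median SD between replicate spots of a probe, over probes with at least 5 spots, was 0.0523 to 0.0591 by array on the log2 scale. It covers error within an array only. Because the dyes were not swapped, a probe's dye effect and the effect of transfection cannot be told apart in these ratios. The reference gene GAPDH was called higher by 0.97 with miR-489 and 0.85 with miR-504, and ACTB by 1.03 and 0.91. The cause of these ratios was not tested.

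With the lines taken as replicates of a miRNA, 7 members could be tested. For miR-489 there were 4 called higher (ITGA3, ITGA5, ITGA6 and LAMA3) and 1 lower (ITGB1), where 30.1% of 15725 genes were called higher and 27.8% lower. For miR-504 the same 4 were called higher and the same 1 lower, where 26.7% of genes were called higher and 24.3% lower. The median log2 ratio of the 7 was 0.63 with miR-489 and 0.43 with miR-504, against 0.02 and 0.02 over all genes. Since dye and transfection cannot be told apart, the 5 calls per miRNA are a description of the ratios.

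**Figure D4:**
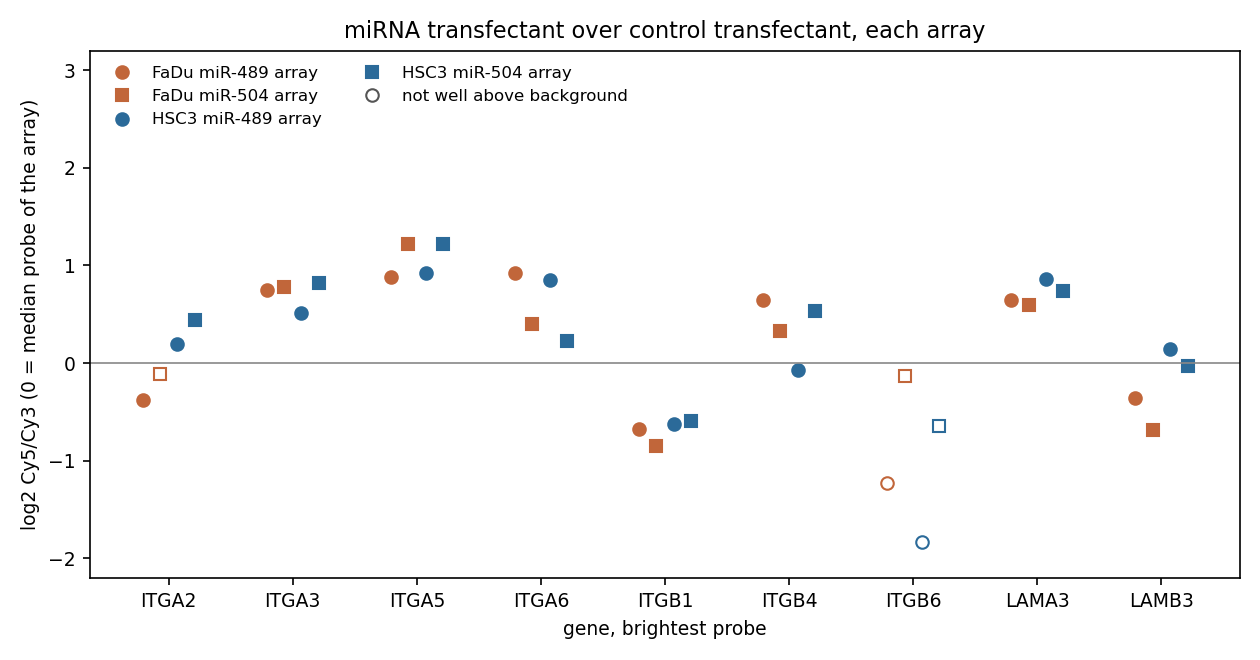
Log2 Cy5/Cy3 ratio of the brightest probe of each gene (vertical axis, 0 is the median probe of the array) on each of the 4 arrays, with FaDu in orange, HSC3 in blue, circles for miR-489, squares for miR-504 and open symbols where either channel was not well above background. ITGA3, ITGA5, ITGA6 and LAMA3 lie above 0 and ITGB1 below 0 on all 4 arrays, and ITGA6 is separated by miRNA in both lines.

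ITGA5, the fibronectin receptor subunit, had the highest mean ratio with each miRNA among the 7 members tested. Its ratios were 0.88 with miR-489 and 1.22 with miR-504 in FaDu, and 0.92 and 1.22 in HSC3. The miR-489 mean was 0.90 (SE 0.08, adjusted p = 0.00117) and the miR-504 mean 1.22 (SE 0.08, adjusted p = 0.00134). In both lines the ratio was lower with miR-489 than with miR-504, with a difference of −0.32 (SE 0.11, adjusted p = 0.213 by limma). This difference was larger than the spread between lines but was not called after adjustment.

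ITGA6 had ratios of 0.92 with miR-489 and 0.40 with miR-504 in FaDu and of 0.85 and 0.23 in HSC3. It was therefore higher with miR-489 than with miR-504 in both lines, by 0.51 in FaDu and 0.62 in HSC3. The mean difference was 0.57 (SE 0.12, 95% confidence interval 0.26 to 0.87), with an adjusted p of 0.110 by limma, and was not called. It was the largest difference between the miRNAs among the 7 members tested.

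ITGA3 had ratios of 0.75 and 0.78 in FaDu and of 0.52 and 0.82 in HSC3, in the order miR-489 and miR-504. LAMA3, by its brightest probe, had 0.65 and 0.60 in FaDu and 0.86 and 0.74 in HSC3. The difference between the miRNAs was called in neither gene, at −0.17 (95% confidence interval −0.49 to 0.16) and 0.08 (−0.25 to 0.42). The dimmer LAMA3 probes gave other signs. A_24_P687302 had −0.10 and −1.23 in FaDu and 0.52 and 0.30 in HSC3, and A_24_P179569 was below 0 on all 4 arrays, but both had spots not well above background in FaDu.

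LAMB3 and ITGB4 were not called with either miRNA, except under other settings. LAMB3 had ratios of −0.36 and −0.68 in FaDu and of 0.15 and −0.03 in HSC3, so that the lines lay apart by more than the miRNAs did. With an intensity-dependent loess normalisation it was called lower with miR-504 (−0.61, adjusted p = 0.0309, and 0.00917 to 0.935 over all alternatives), and with the cell line as a block as well (−0.35, adjusted p = 0.0223). ITGB4 had ratios of 0.65 and 0.33 in FaDu and of −0.07 and 0.53 in HSC3. The HSC3 miR-489 array was the only one below 0, and without it ITGB4 was called higher with miR-489 (0.65, adjusted p = 0.0226, and up to 0.708 over all alternatives).

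ITGA2 and ITGB6 were too dim in Cy3 for the fit. The brightest ITGA2 probe had ratios of −0.38 and −0.11 in FaDu and of 0.20 and 0.44 in HSC3, and the other probe was below 0 on all 4 arrays, from −1.69 to −0.24. ITGB6 had −1.23 and −0.13 in FaDu and −1.83 and −0.64 in HSC3. For ITGB6 the miR-489 ratio was lower than the miR-504 ratio in both lines, but these ratios rest on signals between 16.0 and 38.0.

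The ITGB1 probes disagreed in the sign of the ratio. The brightest, A_32_P95397, had −0.68 and −0.84 in FaDu and −0.62 and −0.59 in HSC3, and was called lower with miR-489 (−0.65, SE 0.09, adjusted p = 0.00396) and miR-504 (−0.72, SE 0.09, adjusted p = 0.00389). A_23_P104199, printed in 10 spots, had 0.56 and 0.26 in FaDu and 0.67 and 0.49 in HSC3, with an SD over its spots of 0.0492 to 0.0782. It was called higher with miR-489 (0.62, SE 0.09, adjusted p = 0.00444) and miR-504 (0.37, SE 0.09, adjusted p = 0.0240). The remaining probes lay between −0.38 and −0.03 and were not called.

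The ratio of the brightest probe minus that of A_23_P104199 varied little over the arrays, at −1.24 and −1.10 in FaDu and −1.29 and −1.08 in HSC3. By the listed positions these probes lie 11064 bases apart, and A_23_P104193 lies 3108 bases from the higher and 7956 bases from the lower one. Taken as the mean of its probes, ITGB1 had a ratio of −0.07 with miR-489 (adjusted p = 0.540) and −0.20 with miR-504 (adjusted p = 0.137), and the calls were lost. No direction under transfection can therefore be given for this gene. In contrast, the probes did not differ in direction between the lines.

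**Figure D5:**
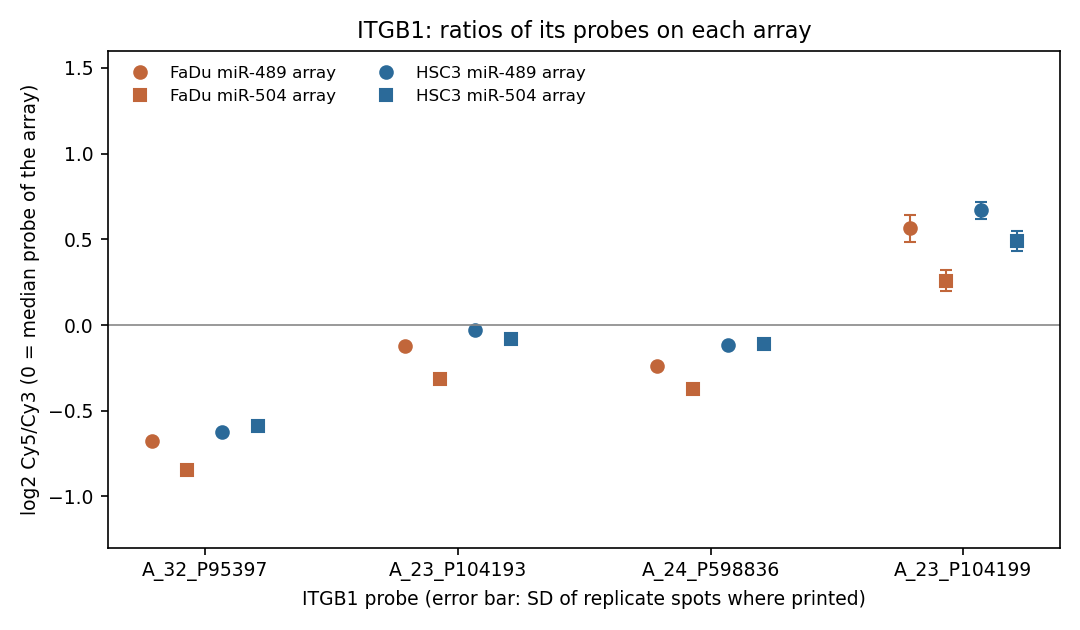
Log2 Cy5/Cy3 ratio (vertical axis, 0 is the median probe of the array) of the 4 ITGB1 probes on each array, with FaDu in orange, HSC3 in blue, circles for miR-489, squares for miR-504 and error bars for the SD over the 10 spots of A_23_P104199. The brightest probe lies below 0 and A_23_P104199 above 0 on all 4 arrays.

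The contrast of miR-489 with miR-504, from which a dye effect shared by the arrays drops out, called 0 of the 7 members. Over all genes, 171 of 15725, or 1.09%, were called, and 2825 had an unadjusted p under 0.05. Two-sided unadjusted p-values of ITGA5 and ITGA6 were under 0.05 and those of the other 5 members were not. The widest 95% confidence interval was that of LAMB3, from −0.45 to 0.95, and the narrowest that of ITGA5, from −0.59 to −0.05. A difference of the size of 1 on the log2 scale lay outside the interval of each of the 7. Whether the control RNA of a line was shared by its 2 arrays is not stated.

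For each member, the gene with the most similar pattern was found by the Euclidean distance over 8 values, the log2 Cy3 and Cy5 levels on 4 arrays, each probe centred on its own mean, among 15604 genes well above background throughout. The nearest gene to ITGA3 was CD151 at a distance of 0.27, where the median distance of all genes was 2.32. A nearest distance, as the smallest of all, lies below the median for any gene, and no likeness was tested. The nearest to ITGA5 was GAST (0.45), to ITGA6 PRKD3 (0.42), to ITGB1 MTMR11 (0.25) and to LAMA3 WDR66 (0.44), and those to ITGB4 (0.20) and LAMB3 (0.36) have no gene symbol on the array. No member was the nearest of another, and the closest pair of members was ITGA3 and ITGB4 at 0.68.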

How the data were processed

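Total RNA was labelled with Cy5 for the miRNA transfectants and with Cy3 for the control transfectants, as the labels give it, and hybridised to 4 arrays on 1 slide read in 1 scan. The authors deposited scanner output of Agilent Feature Extraction 9.5.3.1 that gives each spot's median and mean intensity beside those of its local background, not normalised, and a log10 ratio of Cy5 over Cy3 that the software had dye-normalised. The deposited flags (0 or 1) that mark outliers, saturation and a signal well above background served as filters. The deposited log10 ratios were used only as an alternative, and a deposited table of processed values was not used here. The methods of the study name log2 ratios of background-subtracted medians with a global normalisation, which was followed here.

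Signals were floored at 1. Outlier spots (118 to 137 per array, 0 of them of the members) were left out, 0 spots were saturated, and replicate spots were averaged. Between 58.2% and 59.2% of spots were well above background in Cy3; the number of arrays limits the precision. limma 3.58.1 in R 4.3.3 was fitted to log2 Cy3 levels (24119 probes well above background on both arrays of at least 1 line) and to log2 ratios (20914 probes with Cy3 well above background on all 4 arrays, 2 residual degrees of freedom), two-sided, with Benjamini-Hochberg adjustment over all probes and a threshold of 0.05. A gene was counted by its brightest probe. For a member probe dim on all arrays of a line, a fold against the lowest signal well above background was given beside its fitted estimate. List genes dim in a line kept their estimates and stayed in the counts and medians of the lists. The scripts were tested on simulated data. Genes named beyond the 9 were list genes called with at least 2-fold difference between the lines (at most 5 per list), markers, nearest genes, GAPDH and ACTB; other list genes were named after their values were seen. One further gene that the naming rule held is not reported here. The members and lists were chosen with earlier results of these data known. Gene names are the array's; all 9 matched RefSeq symbols. Alternatives varied the background correction, spot signal, normalisation, filter, channel and probe rule, took the cell line as a block and left out each array. Python 3.11.15, pandas 2.3.3, numpy 2.4.6, matplotlib 3.10.9 and data.table (version 1.17.8) were used. Transcript sequences were not used here.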

Additional observations from a re-analysis of the deposited data

Results flagged for a closer look

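With miR-489, ITGA2 had a log2 ratio of −0.38 in FaDu and 0.20 in HSC3, a difference of −0.57, so that its brightest probe moved in opposite directions in the lines. Its other probe was below 0 in both, at −1.69 and −0.52, and with the deposited ratios the FaDu value of the brightest was −0.07. LAMB3 did likewise, with −0.36 in FaDu and 0.15 in HSC3, a difference of −0.50, but its HSC3 value was below 0 with loess (−0.15), loess after normexp (−0.21), total-signal scaling (−0.03) and the deposited ratios (−0.28), so that both lines were then below 0. Each value is 1 array, and the differences were not tested. The ITGA2 probe gave background-subtracted Cy3 signals of 88.0 in FaDu and 157 in HSC3 on these arrays, and the LAMB3 probe gave 23252 and 65800.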

How the results depend on the processing

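The count of members called lower in FaDu, 8, and the counts for miR-489 (5) and for miR-489 against miR-504 (0) stayed within 1.5-fold under every alternative run, and no alternative turned a called direction. For miR-504 the count fell from 5 to 2 without a filter on dim probes and ranged from 3 to 6 when single arrays were left out (3 without the FaDu or the HSC3 miR-504 array). Leaving out an array leaves 1 array in an arm, whose spread is then taken from the other arm. Among single genes, ITGA2 lost its call between the lines with the software's processed signal (−2.31, adjusted p = 0.0536), without the filter (adjusted p = 0.115) and without either miR-504 array. ITGA6 lost its miR-504 call with loess (0.18, adjusted p = 0.177), loess after normexp, total-signal scaling, the deposited ratios, no filter and without either miR-504 array. LAMA3 lost it without the filter and without the HSC3 miR-504 array (0.60, adjusted p = 0.0576). LAMB3 gained a call as lower with loess, loess after normexp and the deposited ratios for miR-504 (to −0.72) and with the last of these and loess after normexp for miR-489 (−0.49 and −0.44). ITGB4 gained one for miR-504 with normexp or no background subtraction (0.47 and 0.56) and without either miR-489 array (0.43, adjusted p = 0.0199 each), and for miR-489 without the HSC3 miR-489 array. ITGB1 lost both calls as a mean of its probes and without the filter (adjusted p = 0.0504 and 0.0530), and that for miR-504 without the FaDu miR-504 array (adjusted p = 0.0511). Under the alternatives, 158 member ratios of single arrays moved by at least the array's median spot SD and 87 by less. The ITGA5 ratio on the FaDu miR-489 array, for example, went from 0.88 to 0.65 with normexp and to 1.14 with the deposited ratios. The causes were not tested. With the cell line as a replicate block, 0 members were called between the miRNAs, and the block changed 1 call, that of LAMB3 with miR-504 (−0.35, adjusted p = 0.0223). The line is what pairs the arrays, since each carries only the replicate number 1. Signal over background limited ITGA2 and ITGB6 and the dimmer LAMA3 probes.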

Other observations

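The same lists were counted in the ratios to control, in which dye and transfection cannot be told apart. Over all genes 30.1% were called higher and 27.8% lower with miR-489, and 26.7% higher and 24.3% lower with miR-504. Of 18 focal adhesion genes tested, miR-489 had 7 higher and 4 lower and miR-504 had 8 higher and 5 lower. Of the 4 hemidesmosome partners, 3 were higher and 1 lower with miR-489 and 2 higher and 1 lower with miR-504. Of 6 other integrin subunits, 1 was higher and 1 lower with miR-489, and 1 higher and 3 lower with miR-504. Between the miRNAs 0 genes of any list were called, where 1.09% of all 15725 genes were called, so the 0 says little about lists this short.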
